A study of Mus musculus with 45 samples.

Results

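Total RNA of the mouse fibroblast line NIH-3T3 was compared between 60 min after a change to fresh medium and the untreated state. The 6 arrays were chosen by their titles, 3 of total RNA from cells kept for 60 min in medium with 200 µM 4-thiouridine (4sU) and 3 of total RNA taken before any treatment, out of the 45 arrays of the series. The study used 4sU, a uridine analogue that cells build into new RNA, and actinomycin D, which blocks transcription, to determine the half-lives of transcripts. The titles of the 60 min arrays carry the word mock, which the labels do not explain. The untreated cells had no fresh medium, no 4sU and no waiting time, so these 3 differences cannot be told apart in the comparison. All cells grew in DMEM with newborn calf serum and were started at the same density. Other total RNA groups used beside them were 9 arrays at 30 min with 500 µM 4sU, 3 arrays of a second 60 min experiment with 200 µM 4sU that the labels mark 2F without explaining it, and 3 arrays after 1 h in fresh medium with 5 µg/ml actinomycin D, in which transcription was blocked.

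Fresh medium that contains serum is a classical stimulus for cultured fibroblasts. Growth factors in it activate MAP kinases and NF-kappaB, which switch on immediate-early genes without new protein synthesis. The first products are transcription factors of the Fos, Egr and Nr4a families, followed by secreted cytokines and growth factors and by inhibitors that limit the signal. Fresh medium also brings back amino acids and glucose. When amino acids are short, the kinase Gcn2 raises translation of the transcription factor Atf4, which drives genes for amino acid synthesis and transport. The transcription factor MondoA drives Txnip according to the supply of glucose phosphate.

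Values are intensities from GCRMA, a method that corrects the background of Affymetrix probe sets and normalizes the arrays to each other, and changes are their log2 differences ± the standard error from limma. A probe set was tested when its mean log2 intensity over the 6 arrays was 5 or more, an intensity of 32, and a call needed an adjusted p (Benjamini-Hochberg) under 0.05 and at least a 2-fold change. The labels do not say whether replicates came from different cultures, and p then covers only the spread from array to array, which may be technical. In bulk RNA, fewer cells of a type and less RNA per cell cannot be told apart.

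The 3 arrays at 60 min correlated less with each other than those of the other total RNA groups with 3 arrays. The correlation of log2 intensities between them was 0.868 to 0.961, against 0.986 to 0.991 between untreated arrays. The median SD of a probe set was 0.396 at 60 min and 0.152 in untreated cells, on the log2 scale. Replicate 2 at 60 min stood apart. Its 3′ probe set of Actb lay 3.08 above the 5′ probe set on the log2 scale, against 0.77 to 1.29 in the other replicates at 60 min and 0.69 to 0.79 in untreated cells. This gap is read on Affymetrix arrays as a check of RNA integrity, and its part in the results was not tested. Replicate 2 lay at least 1 log2 unit below both other arrays at 60 min for 1801 of 15364 probe sets (11.7%), and above both for 271 (1.76%). Called probe sets were among them. Replicate 2 lay that far below both for Nr4a1 and Ccl2, which were called higher, and that far above both for Txnip, which was called lower. Results are therefore given with and without replicate 2 where it mattered.

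The labelled cell type was checked against markers. All 13 fibroblast markers measured, among them Vim, Col1a2 and Prrx1, averaged above an intensity of 32, with a summed intensity of 66410 to 79250 at 60 min and 73390 to 79170 in untreated cells, and none was called. None of the 6 epithelial, 7 leukocyte and 4 endothelial and muscle markers on the array averaged above 32 in either state. Their summed intensities were 43.68 to 62.28 for the epithelial, 48.93 to 58.08 for the leukocyte and 21.93 to 24.14 for the endothelial and muscle markers at 60 min, against 43.71 to 46.51, 46.58 to 52.9 and 23.02 to 23.39 in untreated cells.

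At 60 min, 5 of 13 measured early transcription factors and 6 of 14 cytokines and chemokines were called higher than in untreated cells, and 8 of 39 targets of Atf4 were called lower. Of 15364 probe sets tested, 229 (1.49%) were called higher and 116 (0.755%) lower. In 5238 (34.1%), the 2 groups had no overlap. With 1 probe set per gene, 99 of 8265 genes (1.2%) were called higher and 48 (0.581%) lower. For 22 of the 99, the untreated mean lay below an intensity of 32, so they entered the test only through their level at 60 min and had to differ. Likewise 8 of the 48 lay below 32 at 60 min. The median change of all probe sets was -0.07, and -0.02 after quantile normalization. Without replicate 2 at 60 min, 354 probe sets were called higher and 328 lower, and these held 208 of the 229 and all 116 of the calls made with every array. With the replicate number as a block, 218 were called higher and 63 lower, of which 173 and 50 were shared. The counts also fell when other single arrays were left out, to 40, 69 and 49 called higher and 5, 6 and 5 lower without untreated replicate 1, 2 or 3, and to 34 and 5 without replicate 3 at 60 min. Without replicate 1 at 60 min they were 981 and 1375. Of 32 called genes followed through the alternatives, among them the 15 largest increases and the 15 largest decreases, 20 lost their call without untreated replicate 1, 17 without replicate 2, 17 without replicate 3 and 20 without replicate 3 at 60 min. The 9 that lost it in none of the alternatives in which they were tested were Cth, Cxcl1, Egr1, Egr3, Ereg, Errfi1, Fos, Lif and Saa3. Of these, Lif lay below 32 in all untreated arrays and entered the test only through its level at 60 min. It therefore had to differ, and its kept call adds no support.

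**Figure D1:**
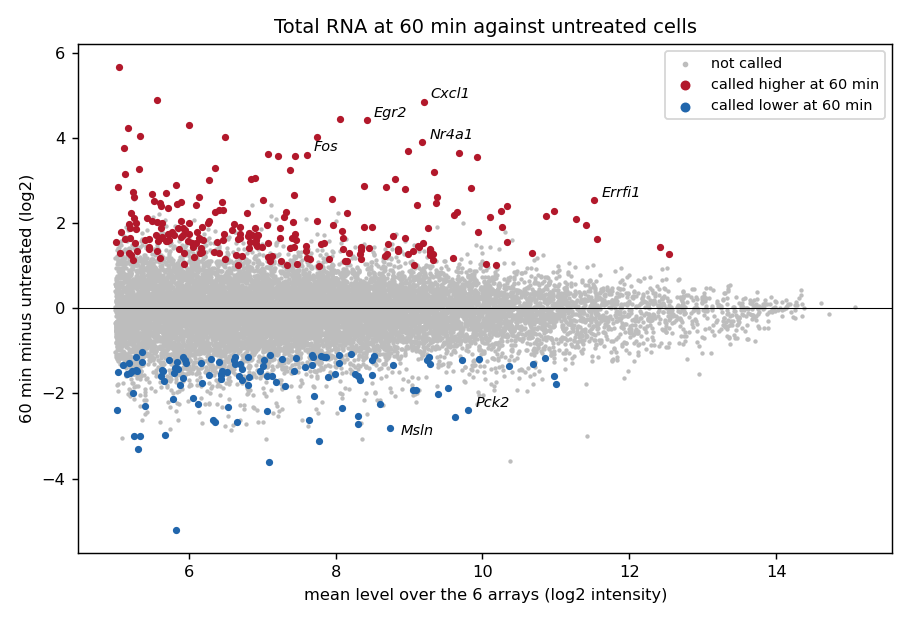
Each point is 1 of the 15364 probe sets tested, with its mean log2 intensity over the 6 arrays on the x axis and its log2 change, 60 min minus untreated, on the y axis. The 229 probe sets called higher (red) reach further from 0 than the 116 called lower (blue), with Cxcl1 at 4.86 and Egr2 at 4.42 among the named increases and Msln at -2.81 and Pck2 at -2.40 among those called lower.

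The promoters of 7 genes that differed are shown because they carry letters of elements known from the pathways above. Each window is the 250 bases before the RefSeq start of the gene on GRCm38.p6, written 5′ to 3′ on the strand of the gene. Capitals mark matches on either strand to the NF-kappaB consensus, to the AP-1 site TGANTCA or to TGATGNAA, the core of the element that Atf4 binds with C/EBP factors. Of the genes with increases, Cxcl1 and Nfkbia hold an NF-kappaB match near the start, and Il6 and Lif hold an NF-kappaB and an AP-1 match.
Cxcl1 (chr5:90890995-90891244, plus strand): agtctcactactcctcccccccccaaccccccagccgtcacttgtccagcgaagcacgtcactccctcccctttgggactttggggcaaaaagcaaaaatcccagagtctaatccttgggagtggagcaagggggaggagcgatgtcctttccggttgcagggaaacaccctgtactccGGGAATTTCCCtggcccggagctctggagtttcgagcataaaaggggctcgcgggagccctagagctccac
Nfkbia (chr12:55492648-55492897, minus strand): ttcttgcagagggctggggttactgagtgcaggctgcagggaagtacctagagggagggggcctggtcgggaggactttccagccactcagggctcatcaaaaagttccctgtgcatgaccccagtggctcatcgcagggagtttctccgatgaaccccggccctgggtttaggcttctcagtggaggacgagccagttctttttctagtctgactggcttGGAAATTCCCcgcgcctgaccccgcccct
Il6 (chr5:30012864-30013113, plus strand): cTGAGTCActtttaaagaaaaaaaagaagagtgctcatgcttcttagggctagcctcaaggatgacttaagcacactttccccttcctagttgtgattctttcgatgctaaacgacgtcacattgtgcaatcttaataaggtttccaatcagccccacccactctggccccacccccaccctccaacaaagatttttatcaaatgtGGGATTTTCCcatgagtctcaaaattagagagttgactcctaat
Lif (chr11:4257318-4257567, plus strand): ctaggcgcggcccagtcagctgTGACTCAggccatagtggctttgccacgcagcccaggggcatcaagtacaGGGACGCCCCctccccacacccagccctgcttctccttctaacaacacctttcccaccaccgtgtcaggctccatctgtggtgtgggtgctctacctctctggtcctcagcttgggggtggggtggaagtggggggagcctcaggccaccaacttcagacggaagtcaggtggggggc
Of the genes with decreases, Chac1, Nupr1 and Herpud1 each hold TTGCATCA, which reads TGATGCAA on the other strand.
Chac1 (chr2:119350992-119351241, plus strand): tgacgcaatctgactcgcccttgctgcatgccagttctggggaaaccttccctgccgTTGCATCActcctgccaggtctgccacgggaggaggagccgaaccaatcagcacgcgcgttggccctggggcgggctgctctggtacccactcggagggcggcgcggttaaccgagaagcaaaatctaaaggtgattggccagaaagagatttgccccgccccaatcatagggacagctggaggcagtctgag
Nupr1 (chr7:126625471-126625720, minus strand): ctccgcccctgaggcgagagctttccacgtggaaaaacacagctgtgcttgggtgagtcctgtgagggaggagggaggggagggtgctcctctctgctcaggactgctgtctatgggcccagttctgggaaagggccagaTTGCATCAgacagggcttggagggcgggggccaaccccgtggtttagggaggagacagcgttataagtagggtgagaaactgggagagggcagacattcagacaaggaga
Herpud1 (chr8:94386179-94386428, plus strand): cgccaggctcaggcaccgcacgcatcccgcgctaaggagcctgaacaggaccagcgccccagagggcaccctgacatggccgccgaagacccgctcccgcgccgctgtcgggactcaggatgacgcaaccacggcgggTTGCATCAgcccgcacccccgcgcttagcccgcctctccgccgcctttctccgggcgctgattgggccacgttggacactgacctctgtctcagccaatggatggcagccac
A promoter was at hand for 72 of the 99 genes called higher, and 18 (25%) of them held an NF-kappaB match, against 722 of 6825 genes tested (10.6%) and 7.25% of all 32851 windows. An AP-1 match was in 9 of the 72 (12.5%), against 4.88% of genes tested and 6.75% of all windows. The Atf4 letters were in 4 of 35 genes called lower (11.4%) and in 9 of 33 measured genes from a list of Atf4 targets (27.3%), against 2.11% of genes tested and 3.45% of all windows. Other motifs were searched as well. The CArG box of SRF was in 5 of the 72 (6.94%) and in 0 of the 35, against 1.42% of genes tested. The CCAAT box was in 28 of the 72 (38.9%) and in 23 of the 35 (65.7%), against 41.3%. An E-box was in 5.56% of genes called higher and 5.71% of those called lower, against 10.6%. The cAMP response element was in 2.78% and 0%, against 3.33%. The matches are descriptions of letters and were not tested.

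Transcription factors of the first wave were among the largest increases. Of 13 measured genes for AP-1, Egr and Nr4a factors, 5 were called higher and 0 lower, with a list median of 1.02, against a median of -0.05 over all genes tested. Egr2, a zinc finger factor induced by growth factors, had intensities of 1016, 1752 and 2250 at 60 min, against 54.8, 93.1 and 79.69 in untreated cells. Every array at 60 min lay more than 10-fold above every untreated array, and the change was 4.42 ± 0.35 (adjusted p = 0.0023). Its relative Egr3 stood at 2709, 2567 and 3512, against 208.1, 282.7 and 211.6 in untreated cells (3.65 ± 0.22, adjusted p = 0.00084). The orphan nuclear receptor Nr4a1 stood at 3771, 1062 and 2816, against 174.3, 129.2 and 148.6 in untreated cells (3.91 ± 0.45, adjusted p = 0.010). The low array of Nr4a1 at 60 min was replicate 2, and without it the change was 4.45.

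Fos, the AP-1 subunit that is the textbook immediate-early gene, stood at 680.1, 639.6 and 722.5 at 60 min, against 52.13, 59.83 and 55.87 in untreated cells. The groups were far apart and tight, with a change of 3.61 ± 0.17 (adjusted p = 0.00045). Egr1 started from a high level, with 5614, 5307 and 5124 at 60 min, against 1498, 1417 and 1234 in untreated cells, and rose by 1.95 ± 0.18 (adjusted p = 0.0042). Myc, a growth factor target that regulates ribosome production, was not called, with 562.8, 254.2 and 540.2 at 60 min, against 481.6, 614.9 and 676.9 in untreated cells (-0.46 ± 0.34, adjusted p = 0.41). The lowest of these arrays was again replicate 2, and without it the difference was -0.09.

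Among 35 other immediate-early genes measured, 10 were called higher and 1, Gadd45a, lower, with a median of 0.98. Klf10, a zinc finger repressor induced by TGF-beta, stood at 1505, 2209 and 1350 at 60 min, against 234.4, 286.6 and 288.5 in untreated cells (2.62 ± 0.24, adjusted p = 0.0043). Csrnp1, a nuclear protein named for its cysteine- and serine-rich sequence, stood at 224.1, 159.9 and 151, against 33.61, 25.39 and 27.35 in untreated cells. Its untreated mean lay below 32, and with untreated arrays set to at least that floor its level at 60 min was at least 5.40-fold higher. Ier3, which affects survival after stress, rose by 2.29 ± 0.28 and F3, the tissue factor that starts blood clotting, by 2.20 ± 0.29 (adjusted p = 0.011 and 0.016). Without replicate 2 at 60 min, 18 of the 35 were called higher.

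Secreted cytokines and chemokines were also among the large increases. Of 14 measured, 6 were called higher and 0 lower, and the median was 1.13. They were Cxcl1, Lif, Il6, Ccl2, Cxcl5 and Clcf1, and the untreated level of 2 of them, Lif and Il6, lay below 32. Cxcl1, a chemokine that attracts neutrophils, stood at 2670, 3516 and 3365 at 60 min, against 105.3, 110.0 and 112.4 in untreated cells. This probe set, the brightest of its 3, changed by 4.86 ± 0.19, a fold of 28.9 (adjusted p = 0.00019), and a second one by 3.71. The third was tested only through its level at 60 min, since its untreated arrays stood at 4.31, 4.84 and 4.76. With these taken at an intensity of 32, its mean level at 60 min was at least 7.36-fold higher. Lif, a cytokine of the interleukin-6 family best known for holding mouse embryonic stem cells undifferentiated, stood at 277.8, 288.6 and 214.9, against 12.99, 7.99 and 6.34 in untreated cells. Its untreated arrays all lay below 32, so it was tested only through its level at 60 min, and its increase is given as a bound of at least 3.01 on the log2 scale, an 8.07-fold change against that floor.

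Il6, an inflammatory cytokine made by stimulated fibroblasts, stood at 140.4, 135 and 234.5 at 60 min, against 7.67, 10.79 and 11.68 in untreated cells. With untreated arrays taken at an intensity of 32, its mean level at 60 min was at least 5.14-fold higher. Ccl2, which attracts monocytes, stood at 4026, 1164 and 3156, against 340.1, 327.6 and 368.3 in untreated cells (2.83 ± 0.44, adjusted p = 0.027). Replicate 2 was the lowest array of Ccl2 at 60 min and still lay above every untreated array, and the change without it was 3.37. Saa3, an acute-phase serum amyloid protein, stood at 1272, 1468 and 1193, against 179.9, 196 and 182.8 in untreated cells (2.81 ± 0.18, adjusted p = 0.00094).

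NF-kappaB rests in the cytoplasm bound to inhibitors that it induces itself. Of 14 measured genes for its subunits, inhibitors and regulators, 3 were called higher and 0 lower, and all 3 encode inhibitors or modulators. Nfkbia, the inhibitor that retains NF-kappaB in the cytoplasm, stood at 3624, 5411 and 4585 at 60 min, against 764.4, 1009 and 978.1 in untreated cells (2.30 ± 0.23, adjusted p = 0.0056). A weaker probe set of Nfkbia, at 1833, 449.2 and 883.8 at 60 min, was not called (1.49 ± 0.47, adjusted p = 0.13). Nfkbiz, a nuclear member of that inhibitor family, rose by 2.26 ± 0.18 (adjusted p = 0.0023), although only 1 of its 3 probe sets was called. Tnfaip3, the ubiquitin-editing protein A20, stood at 129.4, 112.9 and 144.6, against 7.81, 11.13 and 9.43 in untreated cells. With untreated arrays taken at an intensity of 32, its mean level at 60 min was at least 4.01-fold higher. The median of the list was 0.14 and its members ran from -0.87 to 3.78, the highest being Tnfaip3, whose fitted value rests on untreated levels below 32.

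Growth factor ligands and an inhibitor of their receptor were also higher. Of 17 ligands measured, 4 were called higher and 0 lower, with a median of 0.32. Ereg and Hbegf both activate the receptor of epidermal growth factor. Ereg stood at 2134, 1776 and 2028 at 60 min, against 185.8, 244.7 and 216.4 in untreated cells (3.20 ± 0.19, adjusted p = 0.00084). Hbegf stood at 2139, 864.1 and 1148, against 145.5, 166.9 and 160.2 in untreated cells (3.03 ± 0.33, adjusted p = 0.0088). Ccn1, a matrix-bound protein induced by serum, rose by 2.10 ± 0.23 and its relative Ccn2 by 1.27 ± 0.19 (adjusted p = 0.0088 and 0.022). Another probe set of Ccn1 was not called (1.79 ± 0.66, adjusted p = 0.17). With the replicate block, the adjusted p of Ccn2 was 0.053.

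Errfi1, which binds and inhibits the same receptor, stood at 6285, 8576 and 6613 at 60 min, against 1114, 1314 and 1250 in untreated cells (2.54 ± 0.20, adjusted p = 0.0024). It was the brightest of the 15 largest increases. A weaker probe set of it changed by 1.15 and was not called. Of 15 measured genes of MAP kinase feedback, only Errfi1 and Spry4, an inhibitor of the Ras pathway, were called. Spry4 rose by 1.18 ± 0.21 (adjusted p = 0.043, and 0.075 with the block). Dusp5, a phosphatase of nuclear ERK, stood at 1450, 532.9 and 741.3, against 233.8, 258.1 and 245.5 in untreated cells, and missed the threshold at 1.76 ± 0.36 (adjusted p = 0.057). Without replicate 2 its difference was 2.08 and passed (adjusted p = 0.010).

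Other large increases lay outside these families. Grasp, a scaffold protein of receptors at the membrane, stood at 333.3, 723.1 and 565 at 60 min, against 31.41, 61.73 and 40.85 in untreated cells (3.58 ± 0.36, adjusted p = 0.0060). Rgs16, which switches off G protein signals, rose by 2.66 ± 0.25 (adjusted p = 0.0050), the homeobox factor Dlx2 by 2.58 ± 0.29 (adjusted p = 0.0091) and Noct, an enzyme with a strong daily rhythm in liver, by 2.48 ± 0.24 (adjusted p = 0.0054). The arrays at 60 min lay above the untreated arrays without overlap in all 3 genes, as the naming rule required. Of 11 clock genes measured, Dbp and Nr1d2 were called higher. Nr1d2 changed by 1.53 ± 0.29 (adjusted p = 0.046). Dbp stood at 62.45, 115.9 and 98.43 at 60 min, against 29.9, 29.43 and 30.26 in untreated cells. All untreated arrays of Dbp lay below 32, so it was tested only through its level at 60 min. With untreated arrays taken at that floor, its mean level at 60 min was at least 2.79-fold higher. With the block its adjusted p was 0.0502, which missed the threshold.

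**Figure D2:**
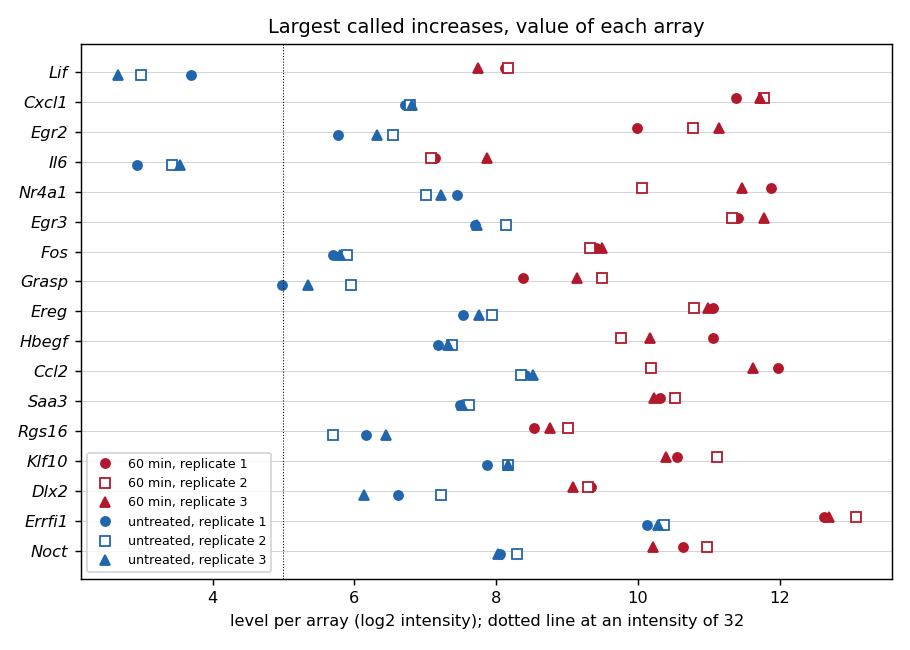
The log2 intensity of each array is shown for the 15 largest increases and for Lif and Il6, with 60 min in red, untreated cells in blue, and a symbol for each replicate number. Every red symbol lies to the right of every blue symbol in its row. The open red squares of replicate 2 are the lowest of the 3 at 60 min for Nr4a1, Hbegf, Ccl2, Fos, Egr3, Ereg and Il6. They are the highest for Grasp, Errfi1, Noct, Cxcl1, Klf10, Saa3, Rgs16 and Lif.

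Of 14 TGF-beta and BMP targets, Id4 and Smad7 were called higher, with a list median of 0.91. Id4, a dominant-negative helix-loop-helix protein, stood at 201.7, 305.5 and 275.5 at 60 min, against 28.89, 37.61 and 16.29 in untreated cells, and lay at least 7.61-fold higher with untreated arrays set to no less than 32. Its relative Id1 stood at 1176, 185 and 648.6, against 102.3, 120.9 and 161 in untreated cells, and was not called (2.05 ± 0.63, adjusted p = 0.12). Replicate 2 held the low value, and without it the difference was 2.80 (adjusted p = 0.0044). Snai1, a repressor of epithelial genes, had an even wider spread at 60 min, with 1274, 158.4 and 319.2, against 155.5, 90.86 and 56.55 in untreated cells (2.11 ± 0.75, adjusted p = 0.16).

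Of 22 SRF and YAP targets, 4 were called higher and Ajuba lower (-1.32 ± 0.25, adjusted p = 0.046, and 0.058 with the block), around a median of 0.04. With the block, 2 were called higher and 0 lower. Of 31 genes for collagens and matrix, 3 were called higher and 0 lower. They included Has2, which makes hyaluronan, at 1.74 ± 0.31, and the matrix protein Postn at 1.51 ± 0.23 (adjusted p = 0.040 and 0.023). The collagen gene Col1a1 stood at 7087, 1507 and 2805 at 60 min, against 7485, 5976 and 5754 in untreated cells, and was not called. Of 14 hypoxia targets, only Adm, the vasodilator peptide adrenomedullin, was called, at 1.88 ± 0.27 (adjusted p = 0.020). Its other probe set stood at 1165, 220.1 and 919.4 at 60 min, against 383.4, 401.2 and 567.5 in untreated cells, and was not called (0.48 ± 0.60, adjusted p = 0.62). Without replicate 2, its low array, the difference was 1.22.

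Among the gene lists, the most called decreases were in Atf4 targets. Of 39 measured, 8 were called lower and 0 higher, and the median was -0.98. The 8 were Cth, Pck2, Psph, Chac1, Herpud1, Nupr1, Slc6a9 and Ddit3. Without replicate 2 at 60 min, 15 were called lower, and without replicate 1, 20. Without replicate 3 at 60 min, or without any 1 of the untreated replicates 1, 2 and 3, only 1 was called lower. With the replicate block, 6 were called lower, and Psph and Slc6a9 no longer passed (adjusted p = 0.062 and 0.052).

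Among enzymes, Cth, which makes cysteine from cystathionine, stood at 129.4, 119.8 and 144.3 at 60 min, against 631, 787.9 and 877.8 in untreated cells. The groups were tight and apart, and Cth fell by 2.54 on the log2 scale (SE 0.20, adjusted p = 0.0024), a 5.80-fold decrease. Pck2, the mitochondrial form of phosphoenolpyruvate carboxykinase, stood at 777.5, 211.9 and 362.7, against 2039, 1928 and 2216 in untreated cells (-2.40 ± 0.44, adjusted p = 0.044). Psph, the last enzyme of serine synthesis, stood at 442, 180.1 and 284.6, against 866.4, 1118 and 1239 in untreated cells (-1.91 ± 0.34, adjusted p = 0.042). Replicate 2 was the lowest array at 60 min for both, and the changes without it were -1.95 and -1.58. Slc6a9, a glycine transporter, fell by 1.47 (SE 0.25, adjusted p = 0.038).

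Among regulators, Chac1, which degrades glutathione, stood at 73.38, 98.41 and 70.73 at 60 min, against 255.8, 238.5 and 301.5 in untreated cells (-1.72 ± 0.21, adjusted p = 0.012). Nupr1, a small nuclear stress protein, stood at 196.2, 158.8 and 188.3, against 497.5, 556.8 and 515.5 in untreated cells (-1.54 ± 0.18, adjusted p = 0.010). Herpud1, a membrane protein of the endoplasmic reticulum that helps to degrade misfolded proteins, fell by 1.59 (SE 0.23, adjusted p = 0.020), and Ddit3, the transcription factor CHOP, by 1.38 (SE 0.18, adjusted p = 0.015). Chac1, Nupr1 and Herpud1 are those whose windows hold TTGCATCA above. Atf5, itself a transcription factor of this pathway, stood at 576.1, 117.7 and 240.6, against 1401, 990.8 and 1153 in untreated cells, and was not called (-2.21 ± 0.53, adjusted p = 0.079).

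Trib3, a pseudokinase that Atf4 induces and that inhibits Akt, had 2 probe sets that differed in size. The brighter one stood at 72.84, 200.1 and 137 at 60 min, against 282.2, 404.7 and 402 in untreated cells, and was not called (-1.51 ± 0.38, adjusted p = 0.085). The other stood at 58.83, 27.85 and 36.54, against 385.7, 488.1 and 580 in untreated cells, and was called at -3.61 ± 0.31 (adjusted p = 0.0036). In both probe sets, every array at 60 min lay below every untreated array. Of 20 genes for chaperones of the endoplasmic reticulum and the unfolded protein response, 0 were called in either direction and 2 were lower at an unadjusted limma p below 0.05, with a median of -0.06, close to that of all genes.

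Txnip, which binds thioredoxin and restrains glucose uptake, stood at 83.08, 225.7 and 98.88 at 60 min, against 849.1, 794.6 and 780.7 in untreated cells (-2.72 ± 0.37, adjusted p = 0.017). Its other probe set stood at 9.4, 10.42 and 8.45, against 343.1, 310.2 and 387.1 in untreated cells. Its arrays at 60 min all lay below 32, so it was tested only through its untreated level, and its level at 60 min was at least 10.8-fold lower, taken at that floor. Of the other 4 measured genes on the MondoA list none was called, among them Arrdc4 with a difference of -1.02 ± 0.36 and Arrdc3 with one of 0.78 ± 0.25 (adjusted p = 0.16 and 0.13). Of 18 genes that FoxO factors or growth factor withdrawal induce, only Tsc22d3, a leucine zipper protein best known as a glucocorticoid target, was called lower (-1.68 ± 0.24, adjusted p = 0.020). Without replicate 2, 4 of the 18 were called lower and 1 higher.

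Of 22 genes for sterol and fatty acid synthesis, Mvd and Lss were called lower and 0 higher, with a median of -0.61. Mvd, which makes isopentenyl diphosphate, stood at 271.2, 125.3 and 170.3 at 60 min, against 575.8, 560.9 and 593.7 in untreated cells (-1.68 ± 0.29, adjusted p = 0.038). Lss, which closes the rings of lanosterol, fell by 1.19 (SE 0.22, adjusted p = 0.047) in its brightest probe set, while its other probe set differed by -0.22 and was not called (adjusted p = 0.63). Neither passed with the replicate block (adjusted p = 0.0504 and 0.0535). Aacs, which activates acetoacetate for lipid synthesis, stood at 464.2, 174.8 and 252.7, against 1024, 973.5 and 1111 in untreated cells (-1.92 ± 0.35, adjusted p = 0.044, and 0.0502 with the block).

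The largest decrease among genes that met the naming rule was that of Msln, the surface protein mesothelin, with 272.2, 142.4 and 107.7 at 60 min, against 1143, 944.6 and 1337 in untreated cells (-2.81 ± 0.36, adjusted p = 0.013). Sp3, a zinc finger factor that binds GC-rich promoters, stood at 64.6, 60.84 and 132.5, against 364.6, 438.3 and 758 in untreated cells (-2.62 ± 0.39, adjusted p = 0.024). Replicate 3 was the highest array in both groups for Sp3. Mtus1, a tumour suppressor that binds microtubules, fell by 1.59 (SE 0.27, adjusted p = 0.038), and Ifi27l2a, an interferon-induced protein, by 1.62 (SE 0.31, adjusted p = 0.050, which is just under the threshold before rounding). Their adjusted p with the block was 0.054 and 0.062. On the list of interferon genes, which does not hold Ifi27l2a, Bst2, an antiviral membrane protein, was the only one of 6 measured that was called. Bst2 stood at 31.58, 14.75 and 19.98 at 60 min, against 60.05, 56.79 and 67.09 in untreated cells. Its arrays at 60 min all lay below 32, so it was tested only through its untreated level. With arrays at 60 min taken at that floor, its mean untreated level was at least 1.91-fold higher. Bst2 missed the threshold with the block (adjusted p = 0.058).

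**Figure D3:**
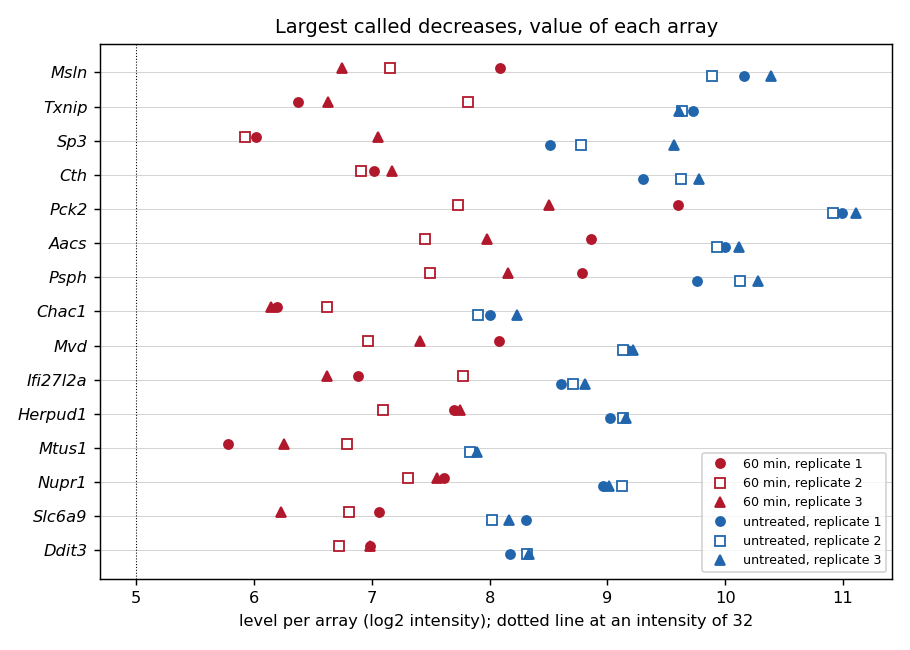
The log2 intensity of each array is shown for the 15 largest decreases, with 60 min in red, untreated cells in blue, and a symbol for each replicate number. Every red symbol lies to the left of every blue symbol in its row. The open red squares of replicate 2 are the lowest at 60 min for Pck2, Aacs, Psph, Mvd, Cth, Sp3, Herpud1, Nupr1 and Ddit3. They are the highest for Txnip, Chac1, Ifi27l2a and Mtus1.

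In 12 lists of other cellular functions no gene was called, which at 12 to 59 genes a list is near the share of calls over all genes. There were 0 calls among 40 genes for ribosome biogenesis and Myc targets, 36 ribosomal proteins, 59 subunits of oxidative phosphorylation, 28 genes for DNA replication and the start of S phase, 28 for mitosis, 22 chromatin and DNA methylation enzymes, 14 hosts of small nucleolar RNAs and nuclear RNAs, 18 p53 targets, 13 heat shock genes and 12 redox genes of Nrf2. With the fibroblast markers and the chaperones above, these lists hold 303 genes, of which 20 were higher and 29 lower at an unadjusted limma p below 0.05 (16.2%), against 20.8% of all genes tested. This share differed between the lists, with 35.7% for mitosis (1 higher and 9 lower), 33.3% for p53 targets (2 higher and 4 lower), 30.8% for heat shock, 27.3% for chromatin enzymes, 25% for redox genes and 23.1% for fibroblast markers, down to 2.78% for ribosomal proteins. Without replicate 2 at 60 min, 2 p53 targets were called higher and 1 lower, and 1 gene each was called higher among ribosomal proteins, heat shock genes and chromatin enzymes. The medians of these lists ran between -0.25 for the redox genes and 0.10 for heat shock. With the replicate block, 1 of the heat shock genes passed, the co-chaperone Dnajb4 (1.59 ± 0.34, adjusted p = 0.062, and 0.048 with the block). Wide differences in single members came with wide spread at 60 min. Ndufa4 of the respiratory chain stood at 1803, 190.8 and 1449 at 60 min, against 2862, 2871 and 3441 in untreated cells, and Rps19 of the small ribosomal subunit at 12650, 1656 and 11300, against 11340, 13090 and 13880. Replicate 2 held the low value for both, and without it their differences were -0.91 and -0.09. Actb, the cytoskeletal actin that often serves as a control, stood at 15030, 11040 and 11570, against 14110, 14240 and 14320 in untreated cells (-0.19 ± 0.19, adjusted p = 0.53). A weaker probe set of Actb differed by -1.10 ± 0.33 and was not called either (adjusted p = 0.12).

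**Figure D4:**
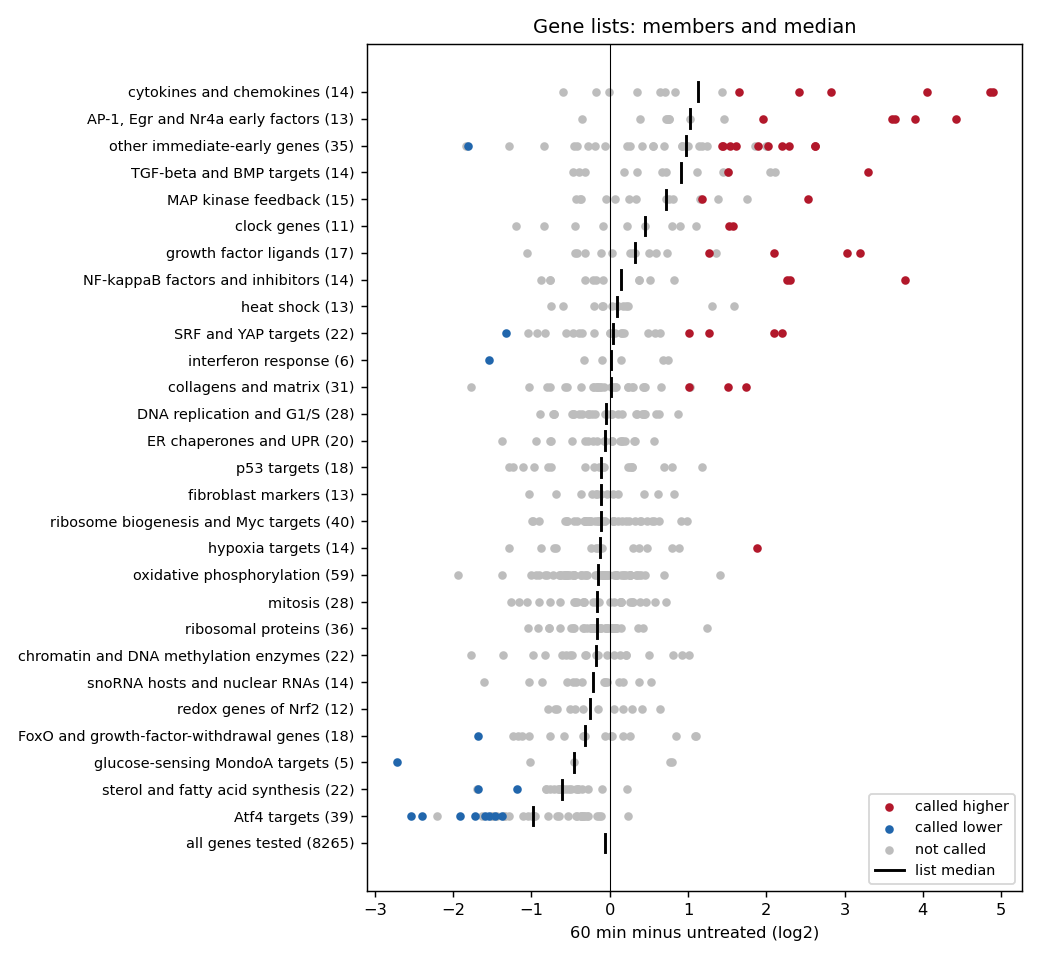
Each row is a gene list with the number of its measured genes, each point a gene with its log2 change, 60 min minus untreated, and each black bar the median of the list. Lists of cytokines, early factors and TGF-beta targets lie to the right, with medians of 1.13, 1.02 and 0.91, the Atf4 targets lie to the left at -0.98, and the median of all 8265 genes is -0.05.

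The second 60 min experiment, marked 2F, had the same time and 4sU dose and tighter arrays, with a median SD of 0.075. Both experiments were set against the same untreated arrays, so their values are given side by side and their likeness is not scored. For the 99 genes called higher, the median difference from untreated cells was 1.69 in the 2F experiment and 1.88 in the first, in which they were chosen. For the 48 called lower, it was -0.67 in the 2F experiment and -1.51 in the first. Over all 8265 genes it was 0.01 in the 2F experiment and -0.05 in the first. Pck2 had 1513, 1544 and 1506 in the 2F experiment, Psph 776.6, 701.4 and 772.8, and Cth 492.9, 485.6 and 459.5, all between the untreated level and that of the first experiment. Txnip had 107, 147.4 and 121.9 in the 2F experiment, against 83.08, 225.7 and 98.88 in the first. The high value was that of replicate 2, and the other arrays of the first experiment lay below all 2F arrays. The other probe set of Txnip had 42.46, 66.61 and 52.72 in the 2F experiment, against 9.4, 10.42 and 8.45 in the first. In that probe set, all arrays of the first experiment lay below the intensity floor used above.

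Tested directly, 17 of 15568 probe sets (0.109%) were higher in the first experiment than in the 2F experiment and 86 (0.552%) lower. These calls rested on single arrays and settings, since limma called 0 in either direction with array weights, with the replicate block, without any 1 of the 2F replicates and without replicate 3 at 60 min, while 4226 had an unadjusted p below 0.05 with all arrays. Leaving out replicate 1 or 2 at 60 min gave 819 and 83 called higher and 1946 and 484 lower. Rgs16, Saa3, Cth and Sp3 were chosen for their level in the same 60 min arrays, which favours a difference in the direction of that choice. Rgs16 was higher in the first experiment, with 371.6, 514.9 and 431.5, against 119.3, 123.1 and 135.5 in the 2F experiment (1.79, adjusted p = 0.027). Saa3 was lower, with 1272, 1468 and 1193 in the first experiment, against 3232, 2960 and 2828 in the 2F experiment (-1.20 ± 0.16, adjusted p = 0.038). Of the genes lower than in untreated cells, Cth (-1.87 ± 0.15, adjusted p = 0.025) and Sp3 (-2.52 ± 0.32, adjusted p = 0.036) were lower in the first experiment than in the 2F experiment. Atp1b1, a subunit of the sodium pump, and P2rx3, an ion channel gated by ATP, also differed between the experiments (-1.33 ± 0.16 and -1.29 ± 0.18, adjusted p = 0.035 and 0.045), and neither was called against untreated cells. Myc stood at 562.8, 254.2 and 540.2 in the first experiment, against 1258, 1275 and 1320 in the 2F experiment, a difference of -1.59 that was not called (adjusted p = 0.083).

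Total RNA at 30 min was taken with a higher dose of 4sU. Its 9 arrays fell into 3 sets by replicate number (1, 4 and 7, then 2, 5 and 8, then 3, 6 and 9). Arrays of the same set correlated at 0.988 to 0.996 and those of different sets at 0.922 to 0.971, so the 9 may be repeat arrays of 3 RNA samples and p over them is too small. At 30 min the 99 genes called higher at 60 min lay at a median of 0.93 from untreated cells and the 48 called lower at -0.37, against -0.01 over all genes, with the same untreated arrays as in the choice of the genes. Fos was highest at 30 min, with 1193, 1758 and 2108 as the lowest, median and highest array, above all its arrays at 60 min. Egr1 was also highest then, with 7343, 7737 and 8591. Lif at 30 min ran over 27.56, 40.54 and 56.73, and Klf10 over 168.2, 278 and 532.7, and for Klf10 this range spans the untreated level.

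The comparison of the 2F experiment with 30 min shares no array with the comparison of the first experiment with untreated cells. In it, 170 of 15440 probe sets (1.1%) were called higher and 47 (0.304%) lower. These counts take the 9 arrays at 30 min as separate samples. With means of the 3 sets they were 65 and 20, without 2F replicate 1, 2 or 3 they were 64, 61 and 84 higher and 24, 21 and 42 lower, and with the replicate block limma called 0. Of the 97 genes called higher at 60 min in the first experiment that were tested here, 15 were called higher and 1, Fos, lower, against 32 and 10 of the 8182 genes tested in all. With the 30 min arrays averaged within their sets, 8 were higher and 1 lower, against 18 and 6 of all genes. The largest increases with 30 min as the base were Ccl2 (2.08 ± 0.22, adjusted p = 0.00034), Snai1 (2.07 ± 0.34, adjusted p = 0.0041), Klf10 (1.93 ± 0.30, adjusted p = 0.0030), Id1 (1.91, adjusted p = 2.3e-05) and Dlx2 (1.90, adjusted p = 0.00077). With set means the adjusted p of Ccl2, Klf10, Id1 and Dlx2 was 0.027, 0.048, 0.017 and 0.033, and that of Snai1 was 0.057, which missed the threshold. Fos fell by 1.41 (adjusted p = 0.00048, and 0.033 with set means). Of the 48 genes called lower, 0 were called higher and 3 lower, among them Txnip (-1.34, adjusted p = 0.0013) and Chac1 (-1.32, adjusted p = 0.00030). With set means, 2 of the 48 were called lower. Chac1 at 30 min ran over 306.1, 380.8 and 487.6 as the lowest, median and highest array, above all its untreated arrays. Its difference from 30 min therefore started above the untreated level. Its 2F arrays, at 151.4, 144.7 and 162.5, lay below that level.

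Some genes varied between the 3 sets at 30 min as much as between the states compared. Saa3 stood at 164 to 205 in replicates 1, 4 and 7, near the untreated 179.9 to 196, and at 2744 to 3345 and 2729 to 3155 in the other sets. Msln stood at 1282 to 1402 in the first set, near its untreated level, and at 158 to 169 and 273.3 to 291.7 in the others. Cxcl1 stood at 434.6 to 582.6 in the first set and at 1320 to 1686 and 1155 to 1369 in the others. In the first set, these 3 genes were thus nearer to untreated cells, and what sets the replicates apart is not in the labels.

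**Figure D5:**
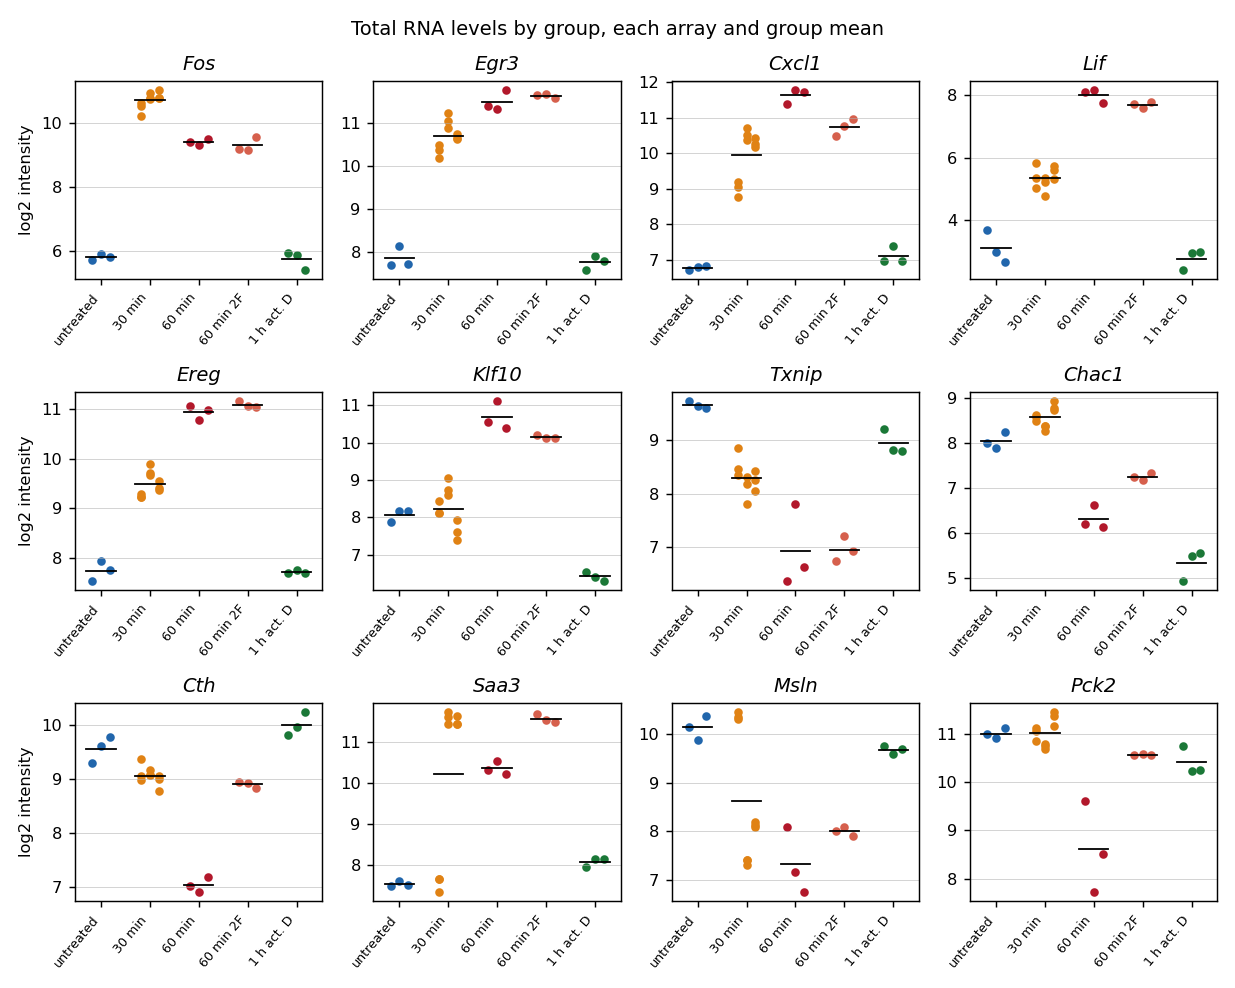
Each panel is a gene, and each point the log2 intensity of 1 array of total RNA in untreated cells, at 30 min, at 60 min in the first experiment, at 60 min in the 2F experiment and after 1 h of actinomycin D, with the group mean as a bar. The columns of points at 30 min are the 3 sets of replicates. Fos is highest at 30 min, Lif and Klf10 at 60 min, Cth and Pck2 are lowest in the first 60 min experiment, and Saa3 and Msln separate by set at 30 min.

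Cells that received fresh medium with actinomycin D for 1 h had the change of medium and the waiting time, with transcription blocked and no 4sU. The genes called higher at 60 min lay at a median of 0.00 from untreated cells in actinomycin D, against 0.02 over all genes. Fos stood at 61.02, 58.47 and 42.47 in actinomycin D, Cxcl1 at 125.5, 168.1 and 124.6, and Ereg at 207.6, 215 and 207, all within a factor of 2 of their untreated levels. Nfkbia and Klf10 lay below the untreated level there, with 97.28, 168.5 and 142.2 for Nfkbia and 93.11, 85.22 and 79.01 for Klf10. Both genes thus lay below the untreated level after 1 h in actinomycin D and above it at 60 min without the drug.

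The genes called lower at 60 min lay at a median of -0.40 from untreated cells in actinomycin D. Cth, with 901.6, 1005 and 1210 in actinomycin D, Psph, with 1335, 1453 and 1524, and Pck2, with 1722, 1198 and 1220, kept levels well above those at 60 min. Txnip stood at 588.9, 449.8 and 448.3 in actinomycin D, also above 60 min. Chac1 went the other way, with 30.85, 45.21 and 47.56 in actinomycin D, below all its arrays at 60 min. Of the 15 largest decreases, 13 had all arrays at 60 min below all arrays in actinomycin D, and 1 had them above. Of the 48 genes called lower, 34 lay below and 5 above in this way, against 1774 and 1511 of all 8265 genes. These genes were chosen for low levels in the same 60 min arrays, which favours the first direction.

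RNA fractions of 60 min experiments gave further levels, although each fraction was normalized with all other arrays and their amounts per cell cannot be compared. Newly transcribed RNA of the first experiment, which carries the 4sU label, held Cxcl1 at 5222, 13800 and 13650 and Lif at 2151, 2383 and 2530. It held Cth at 89.34, 52.71 and 65.58, against 295.8, 270.3 and 259.1 in newly transcribed RNA of the 2F experiment. In the first experiment, replicate 1 of this fraction, with the lowest Cxcl1 and the highest Cth, stood apart. It correlated at 0.872 and 0.87 with replicates 2 and 3, which correlated at 0.983. Its 3′ probe set of Gapdh lay 3.07 above the 5′ one on the log2 scale, against -0.27 and -0.29 in replicates 2 and 3. Pre-existing RNA without label, which has no 2F mark, held Cth at 585.9, 488.1 and 537.6 and Pck2 at 1749, 1931 and 1715. For both genes, these levels lay above total RNA of the first experiment. Over 15364 probe sets, the mean of pre-existing RNA differed from total RNA by a median of 0.496 log2 units in the first experiment and of 0.254 in the 2F experiment. From total RNA of untreated cells it differed by 0.298, also less than from the first experiment, whose arrays spread widely. By this measure it lay nearest to the 2F experiment, but the measure does not tell which experiment it came from.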

How the data were processed

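Total RNA of NIH-3T3 cells was hybridised to Affymetrix mouse arrays after Trizol extraction and one-cycle labelling, per the labels' protocols. The deposited values are GCRMA intensities made by the authors, as the submitters' processing notes state, and the version is not given in the sources used here. Their log2 was taken, and samples were grouped by title. Of 31451 probe sets, 61 were controls and left out, and 25031 had exactly 1 gene symbol, for 13232 genes, with 690 having several and 5669 none. Symbols of 24934 probe sets were checked through Entrez identifiers in the RefSeq table, which changed 0 of them. There is no read depth for arrays, and precision is limited by how many there are.

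Each comparison was a limma 3.58.1 model (R 4.3.3, lmFit then eBayes) with group as its factor, on the arrays of the 2 groups compared. The script was tested on simulated data. The 3 comparisons were 60 min against untreated cells, 60 min against the 2F experiment, and the 2F experiment against 30 min. Adjusted p values are Benjamini-Hochberg values over all probe sets tested. Gene lists, 31 in all and written from general knowledge, used the probe set with the highest mean of each gene, and 26 genes are in more than 1 list. The genes, lists and comparisons were chosen with earlier results of these data known. Named genes are the 15 largest called increases and decreases whose mean log2 reached 7, with a single symbol, groups without overlap and the brightest probe set of the gene, up to 4 members with the largest change per list, up to 5 genes for each of the other comparisons, and Lif, Cxcl1, Trib3, Fos, Myc, Egr1 and Actb. Gadd45a, Cxcl5, Clcf1 and Smad7 were named after their values were seen, to complete small counts.

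Arrays that share a replicate number departed together from the means of their groups, with correlations of 0.257, 0.33 and 0.122 for replicates 1, 2 and 3 between 60 min and untreated cells. The numbers may thus pair these arrays, although the labels do not say so. The main model had no block, so its counts and adjusted p values leave out any such pairing. Blocked values are given as an alternative where they change a call. Between the first and the 2F experiment the correlations were 0.0797, 0.0286 and 0.00661, and the numbers were not taken to pair them. Promoter windows came from RefSeq sequences of GRCm38.p6, and motifs were searched on both strands, with overlapping matches allowed.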

Additional observations from a re-analysis of the deposited data

Results flagged for a closer look

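The 60 min level of 4 named genes differed between the first and the 2F experiment by a direct limma test, with adjusted p = 0.038 for Saa3, 0.027 for Rgs16, 0.036 for Sp3 and 0.025 for Cth. On the log2 scale, first minus 2F experiment, Saa3 differed by -1.20, Rgs16 by 1.79, Sp3 by -2.52 and Cth by -1.87. These calls depend on single arrays and settings, since no probe set was called in this comparison with array weights, with the replicate block, without any 1 of the 2F replicates or without replicate 3 at 60 min. All 4 were also chosen for their level in the same 60 min arrays. Beside these values, Saa3 at 30 min was near its untreated level in 1 of the 3 sets of replicates and high in the others. In Sp3, the 30 min arrays ran over 173.6, 226.9 and 396.6 as the lowest, median and highest, below the 2F arrays at 435.3, 496.5 and 454.8. What differed between the experiments is not in the labels, and its part in these results was not tested.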

How the results depend on the processing

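Counts for 60 min against untreated cells are given as higher, then lower. Against 229 and 116, they were 116 and 62 with a filter at a mean log2 of 7, 50 and 7 with array weights, 54 and 22 with a floor at an intensity of 32, and 641 and 900 when all total RNA groups shared the spread. With the replicate block, 63 were called lower, and among the genes named the block changed no call other than those given above. Leaving out 1 array gave 34 to 981 called higher and 5 to 1375 called lower. The cause was not tested. Against 17 and 86 for the first against the 2F experiment, 35 were higher with quantile normalization, 58 and 314 were called without a filter and 3 and 4 with a filter at 7. With the replicate block and with array weights 0 were called in either direction, while 4226 probe sets had an unadjusted limma p below 0.05 without them. Leaving out 1 array gave 0 to 819 and 0 to 1946. Against 170 and 47 for the 2F experiment against 30 min, 340 were higher without a filter, 52 and 24 were called with a filter at 7, 342 and 99 with array weights, 605 and 277 without a fold threshold, 78 were lower with quantile normalization, and 0 were called in either direction with the replicate block, where only 3 numbers are shared. Averaging the 30 min arrays in sets, which was chosen after seeing the data, gave 65 and 20. Leaving out 1 array gave 61 to 84 and 21 to 42. Early factors called higher numbered 3 with the floor and 4 to 6 when 1 array was left out, against 5. Cytokines numbered 3 to 6, against 6. Atf4 targets called lower numbered 5 without a filter, 1 with array weights, 3 with the floor, 18 with the shared spread and 1 to 20 when 1 array was left out, against 8. The median change of ribosome biogenesis genes was -0.11, turned to 0.033 without replicate 2 at 60 min, and ran from -0.26 to 0.033 over the runs that left out 1 array. The medians of early factors, cytokines, Atf4 targets and oxidative phosphorylation and the single genes followed in these runs kept their sign, but many calls were lost. Other list medians near 0 also changed sign without replicate 2 at 60 min. Ribosomal proteins went from -0.157 to 0.016, DNA replication genes from -0.044 to 0.041 and interferon genes from 0.022 to -0.096. Of 32 named genes with a call, 21 lost it with the floor, 16 with array weights, 12 without a filter, 6 with the block and 2 with quantile normalization. Leaving out 1 array lost 20 without untreated replicate 1, 17 without untreated replicate 2 or 3, 20 without replicate 3 at 60 min and 0 without replicate 1 or 2 at 60 min.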
